A study of Homo sapiens with 2 samples.

Results

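The genes described here are the 8 protein-coding human genes that encode ligands of the NKG2D receptor: MICA, MICB, ULBP1, ULBP2, ULBP3, RAET1E (also called ULBP4), RAET1G (ULBP5) and RAET1L (ULBP6). They were chosen by gene symbol and make up 8 of the 60671 distinct genes in the deposited count table. The cells were C4-2B, an established castration-resistant prostate cancer (CRPC) line, kept in medium with foetal bovine serum and antibiotics. One culture condition was vehicle and the other was overnight exposure to 1 µM of (R)-9b, a small-molecule inhibitor of the non-receptor tyrosine kinase ACK1 (gene TNK2), with 1 RNA sequencing library for each. The agent used as vehicle is not named in the labels, and the labels give no genotype beyond the cell line. The treatment text of both samples describes the (R)-9b exposure, so the 2 libraries were told apart by the treatment label and the title of each sample, on which the direction of every ratio rests. With 1 library per condition there was no replicate check, no p-value could be given, and each comparison below is between these 2 libraries rather than between the 2 conditions.

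NKG2D is an activating receptor on natural killer cells and on many cytotoxic T cells. Its ligands are distant relatives of MHC class I molecules that healthy cells carry sparsely and that stressed, infected or transformed cells can display, so that a lymphocyte bearing NKG2D may recognise and kill them. MICA and MICB are transmembrane proteins encoded in the MHC class I region, whereas the ULBP/RAET1 genes form a separate cluster on the long arm of the same chromosome, and ULBP1, ULBP2, ULBP3 and RAET1L encode proteins held in the membrane by a glycosylphosphatidylinositol (GPI) anchor. Ligand on the surface is also limited by proteases that cut it from the cell, so a messenger RNA level is not a surface level, and no protein was measured in these libraries.

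The vehicle library held 65207444 counts and the (R)-9b library 57653965, and mitochondrially encoded genes took 1.49% of the first and 9.54% of the second. The part of this difference in the results below was tested only for scaling: leaving those genes out of the normalisation moved every log2 ratio by 0.00051. One label names the cells as breast cancer, whereas the line is a prostate one. All 7 prostate markers reported here were detected (KLK2, KLK3, FOLH1, HOXB13, TMPRSS2, STEAP2 and SLC45A3), with a summed level of 4585 CPM (counts scaled to library size) in the vehicle library and 8837 CPM with (R)-9b. Of 10 breast markers, 4 (SCGB2A2, CSN2, ANKRD30A and LALBA) were at 0 in both libraries, the oestrogen receptor gene ESR1 had 2 counts in each, and the list summed to 27.7 and 34.6 CPM. The rest of that list was detected: ELF5 had 1636 counts with vehicle and 1272 with (R)-9b, PIP 124 and 595, TFF1 41 and 73, SCGB1D2 34 and 8, and the progesterone receptor gene PGR 10 and 2. Of 13 immune markers, 6 were at 0 in both libraries, among them PTPRC and CD3D, and the list summed to 0.646 and 0.992 CPM. The 8 stromal markers summed to 31.7 and 47.7 CPM, of which COL1A1, with 1114 and 2004 counts, was the largest part. VWF had 769 and 411 counts, PDGFRB 181 and 205, and the others fewer. The part of the stromal transcripts in the ligand results was not tested. As in any bulk sample, fewer cells expressing a gene and less RNA of it per cell cannot be told apart.

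All positions are given on GRCh38 from the GENCODE release 29 annotation, which may differ in detail from the annotation used for counting. MICA lies on the plus strand at chr6:31399784-31415315 and MICB on the plus strand at chr6:31494881-31511124. The ULBP/RAET1 cluster runs in the order RAET1E (chr6:149883375-149898102, minus strand), RAET1G (chr6:149916878-149923121, minus), ULBP2 (chr6:149942000-149949235, plus), ULBP1 (chr6:149964007-149973710, plus), RAET1L (chr6:150018334-150025532, minus) and ULBP3 (chr6:150063150-150069095, minus), with the pseudogene RAET1K between ULBP1 and RAET1L. Counts were summed over exons, so each value is for the whole gene.

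The stretches of 250 bases before the RefSeq start of 4 of the genes (RefSeq, GRCh38.p14) are printed here. They belong to the 2 genes that were lower with (R)-9b (ULBP1 and RAET1L), the paralogue nearest to ULBP1, which was not resolved (ULBP2), and the abundant gene that was higher (MICA). Capitals mark matches, on either strand, to the 2 motifs found in these 4 windows, the cyclic AMP response element half-site TGACG and the GC box GGGCGG. The windows lie at chr6:149963693-149963942 (ULBP1, plus strand), chr6:149941764-149942013 (ULBP2, plus), chr6:150025533-150025782 (RAET1L, minus) and chr6:31403345-31403594 (MICA, plus). The RefSeq starts of ULBP1, ULBP2 and MICA differ from the GENCODE gene positions given above, while that of RAET1L is the same. The MICA window lies inside the GENCODE extent of MICA, and the end of the ULBP2 window lies inside that of ULBP2.
ULBP1: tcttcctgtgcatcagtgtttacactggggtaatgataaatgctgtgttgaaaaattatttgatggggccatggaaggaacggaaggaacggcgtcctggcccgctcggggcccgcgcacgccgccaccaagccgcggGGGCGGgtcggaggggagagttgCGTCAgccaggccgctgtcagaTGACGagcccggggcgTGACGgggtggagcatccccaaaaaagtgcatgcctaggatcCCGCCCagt
ULBP2: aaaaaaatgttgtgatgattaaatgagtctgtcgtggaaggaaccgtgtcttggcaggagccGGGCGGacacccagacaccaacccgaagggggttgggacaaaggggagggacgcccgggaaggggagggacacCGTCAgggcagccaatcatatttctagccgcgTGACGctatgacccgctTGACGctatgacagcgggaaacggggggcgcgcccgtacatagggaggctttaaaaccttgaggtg
RAET1L: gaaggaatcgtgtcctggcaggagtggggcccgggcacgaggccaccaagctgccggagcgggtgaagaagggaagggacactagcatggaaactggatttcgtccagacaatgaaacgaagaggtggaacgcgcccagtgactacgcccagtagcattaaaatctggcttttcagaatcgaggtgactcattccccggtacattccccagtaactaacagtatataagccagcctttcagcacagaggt
MICA: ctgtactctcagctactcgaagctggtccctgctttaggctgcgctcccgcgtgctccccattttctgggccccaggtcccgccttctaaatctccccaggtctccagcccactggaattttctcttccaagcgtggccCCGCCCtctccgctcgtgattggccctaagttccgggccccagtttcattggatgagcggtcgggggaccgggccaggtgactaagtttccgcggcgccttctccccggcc
The ULBP1 window held 3 copies of TGACG, whose first bases lay 89, 67 and 51 bases before the start, and 2 GC boxes at 112 and 9 bases. The ULBP2 window also held 3 copies of TGACG, at 115, 83 and 66 bases, with 1 GC box at 188 bases. The RAET1L window held neither motif and the MICA window held 1 GC box. No 2 matches in these windows overlapped. Among the windows not printed, ULBP3 held 6 GC boxes, MICB 1 and RAET1G 1, and TGACG matched in none of them. TGACG was present in 21.2% and GGGCGG in 42.6% of 35116 RefSeq promoter windows of the same length. The motifs TGATGCAA, an ATF4 and C/EBP composite element found in 0.772% of promoters, and TATAAA, found in 10.7% and bound by the general factor TBP, matched in none of the windows of the 8 genes, and the heat shock element TTCNNGAA, found in 6.62%, matched only in 1 of the windows of RAET1E. A match is a description of the letters, and none of these data measured binding.

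The 8 genes did not move as a group. ULBP1 was 3.75-fold lower in the (R)-9b library than in the vehicle library and RAET1L was 2.31-fold lower, while MICA was 1.39-fold higher and RAET1E was higher on very few counts. The other 4 genes, MICB, ULBP2, ULBP3 and RAET1G, could not be told apart from no difference. A gene was called higher or lower here when the exact 95% interval of its ratio, after scaling by the trimmed mean of M values (TMM), lay wholly on one side of 1, and all 8 genes passed the minimum of 10 counts over both libraries. The interval covers counting error only. By this rule 2 of the 8 genes were higher, beside 29.8% of the 23446 genes tested, and 2 were lower, beside 31.1% of all genes, so the number of ligand genes called was near the background. The median log2 ratio of (R)-9b to vehicle over the 8 genes was -0.17, beside -0.0049 over all genes tested. Under the stricter rule that the whole interval lie past 2-fold, 1 ligand gene was lower (ULBP1), beside 3.44% of all genes, and 1 was higher (RAET1E), beside 4.2%. RAET1E passed the minimum of counts only through the (R)-9b library, in which it was higher, so its place in these counts was set in part by that minimum, and MICA was the other gene called higher.

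**Figure D1:**
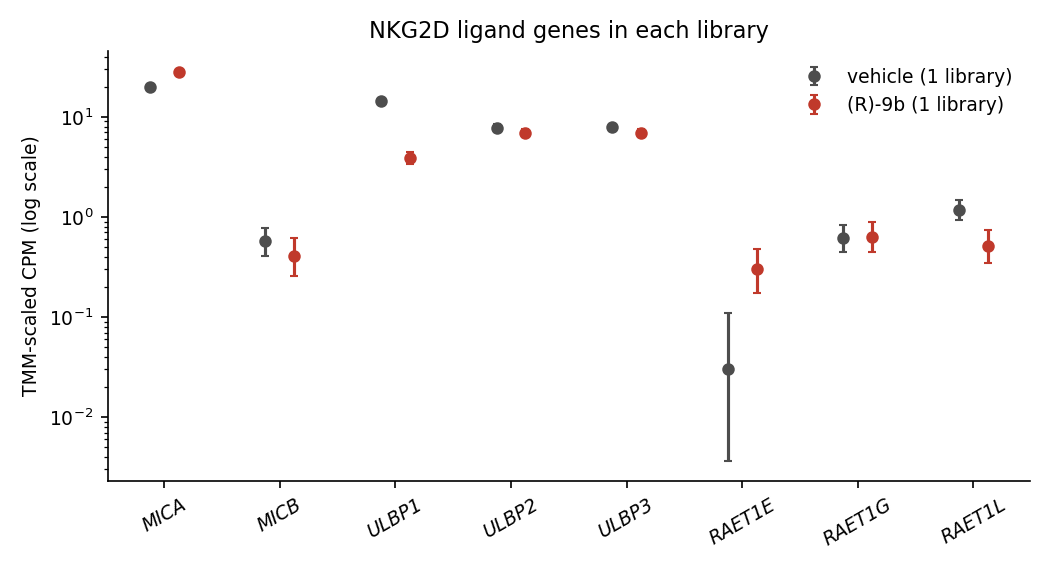
TMM-scaled CPM of each of the 8 NKG2D ligand genes on a log axis in the vehicle (grey) and (R)-9b (red) libraries, 1 library each, with exact 95% Poisson intervals as bars. ULBP1 falls from 14.5 to 3.86 CPM and MICA rises from 20.1 to 27.8 CPM, with intervals that do not overlap, while ULBP2, ULBP3, MICB and RAET1G have overlapping intervals.

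MICA, the most abundant of the 8, had 1335 counts with vehicle and 1571 with (R)-9b. These are 20.1 CPM (95% interval 19.0 to 21.2) and 27.8 CPM (26.5 to 29.2) after scaling, and the 2 intervals did not overlap. The log2 ratio was 0.47 (0.37 to 0.58). This was a moderate difference for these libraries: 76.2% of the genes tested had a smaller log2 ratio, and MICA ranked 2201 among 5243 protein-coding genes called higher, ordered by the interval end nearest 0. MICA shares 62 exon bases on the same strand with HCP5, a transcript of the MHC region that had 17 and 44 counts (log2 ratio 1.61, 0.77 to 2.51).

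The deposited transcript table gave MICA 501 estimated counts in the vehicle library and 577 with (R)-9b, spread over 30 annotated transcripts under 4 Ensembl gene identifiers. The identifier used in the gene table, ENSG00000204520, took 24.3 and 15.1 of these estimated counts. The transcript MICA-230, which carries another identifier (ENSG00000233051) that is not placed on the primary assembly in GENCODE 29, took 384 and 443. MICA-230 thus held 76.6% and 76.8% of the gene's estimated counts, and its share was nearly equal in the 2 libraries. MICA is a highly polymorphic gene, and its annotated sequence differs between assembled haplotypes of the MHC region.

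MICB, the close relative of MICA, was detected far more weakly, with 38 counts in the vehicle library and 23 with (R)-9b. Its levels were 0.571 CPM (0.404 to 0.783) and 0.407 CPM (0.258 to 0.611), and these intervals overlapped. The log2 ratio was -0.49 (-1.30 to 0.30), so a difference in either direction was not detectable at this depth. In the transcript table MICB had only 7 and 2 estimated counts over 20 transcripts and 8 gene identifiers, none of them on the identifier in the gene table.

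ULBP1 had the lowest log2 ratio of the 8 genes. Its counts were 963 with vehicle and 218 with (R)-9b, or 14.5 CPM (13.6 to 15.4) and 3.86 CPM (3.37 to 4.41), with intervals far apart. This gave a log2 ratio of -1.91 (-2.12 to -1.69), a ratio of 0.267. Only 3.42% of the genes tested had a lower log2 ratio, and ULBP1 ranked 194, by the interval end nearest 0, among 5474 protein-coding genes called lower, of 14791 protein-coding genes tested. Its single annotated transcript, ULBP1-201, had 354 and 79 estimated counts, which gave the same log2 ratio of -1.91 (-2.28 to -1.56). No window of 150 bases in ULBP1 transcripts, the length of 1 sequenced read, was identical to a window of another gene, and of windows of 75 bases 3.16% were shared with ULBP3 or RAET1K.

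ULBP2 and ULBP3, which encode other GPI-anchored ligands, were nearly level between the libraries. ULBP2 had 513 and 391 counts, or 7.70 CPM (7.05 to 8.40) in vehicle and 6.92 CPM (6.26 to 7.65) with (R)-9b. ULBP3 had 523 and 390 counts, or 7.86 CPM (7.20 to 8.56) and 6.91 CPM (6.24 to 7.63). For both genes the intervals overlapped. The log2 ratio was -0.15 (-0.35 to 0.04) for ULBP2 and -0.19 (-0.38 to 0.01) for ULBP3 for the counts as deposited. With counts halved these intervals were wider, from -0.43 to 0.12 and from -0.46 to 0.09. These 2 values depend on the scaling: with total counts the intervals of both genes lay below 0 (-0.21 and -0.25), and with DESeq2 size factors that of ULBP3 did (-0.21).

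RAET1L, whose sequence is similar to that of ULBP2, had 79 counts in the vehicle library and 29 with (R)-9b. Its level was 1.19 CPM (0.939 to 1.48) and then 0.514 CPM (0.344 to 0.738), and the intervals did not overlap. On the log2 scale the ratio was -1.21 (-1.88 to -0.58), and RAET1L ranked 1241 in that order among the protein-coding genes called lower. In the transcript table it had 27.2 and 7.35 estimated counts. Of windows of 150 bases, 4.26% of those of RAET1L and 4.25% of those of ULBP2 were found in the other gene, and 19.6% and 20.5% of windows of 75 bases were shared with other genes of the cluster. The study's methods describe counting only reads that align uniquely and unambiguously, so the values of both genes are uncertain to the extent of such shared stretches.

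RAET1G had 41 counts in the vehicle library and 36 with (R)-9b, or 0.616 CPM (0.442 to 0.835) and 0.638 CPM (0.447 to 0.883), and these intervals overlapped almost fully. Its log2 ratio was 0.05 (-0.64 to 0.73). The transcript table gave 23.0 and 8.59 estimated counts, a log2 ratio of -1.10 (-2.40 to 0.06), which differs in sign, and in the vehicle library 11.6 of its estimated counts were on a transcript annotated for nonsense-mediated decay (RAET1G-202), which had 0 with (R)-9b. The direction of RAET1G was therefore not resolved. RAET1G also shares 138 exon bases with an antisense transcript, RAET1E-AS1, and no source used here states whether the counting used strand.

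RAET1E, which encodes a transmembrane ligand, was barely detected. It had 2 counts in the vehicle library and 17 with (R)-9b, or 0.030 CPM (0.0036 to 0.109) and 0.301 CPM (0.175 to 0.482). The log2 ratio was 3.33 with a counting interval of 1.25 to 6.48, that is from 2.38-fold to 89.4-fold. Of RAET1E windows of 150 bases, 28.8% were also in AL355312.5, a read-through gene on the same strand that shares 1050 exon bases with it and had 9 and 10 counts. With the transcript table RAET1E had 5.88 and 13.0 estimated counts and a log2 ratio of 1.37 (-0.13 to 3.05), which no longer excludes 0.

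**Figure D2:**
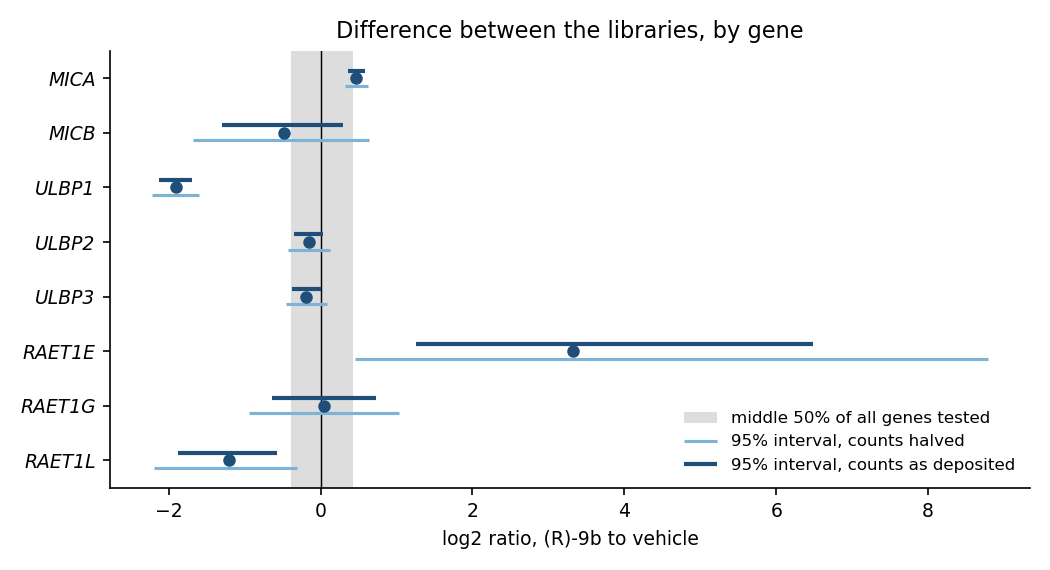
Log2 ratio of (R)-9b to vehicle for each gene (points), with the exact 95% interval for the counts as deposited (dark bars) and for counts halved (light bars), and the middle 50% of all genes tested as a grey band from -0.38 to 0.43. ULBP1 and RAET1L lie left of the band, RAET1E lies right of it with a wide interval, and MICA lies just past its right edge.

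The counts appeared to be of single mates rather than of read pairs, since among genes with 1 to 20 counts the number was even for 72.2% with vehicle and for 70.3% with (R)-9b. With all counts halved before the intervals were made, the interval of ULBP1 was -2.22 to -1.60, that of MICA 0.32 to 0.62, that of RAET1L -2.19 to -0.31 and that of RAET1E began at 0.45. The calls of ULBP1, MICA and RAET1L thus held with halved counts. The minimum of 10 counts was applied before halving. RAET1E, with 19 counts in all, would not have passed it afterwards, so its call was not tested in this way.

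The differences between the genes can also be read without any scaling, from the ratio of the counts of a pair of genes in each library. There were 0.721 ULBP1 counts per MICA count in the vehicle library and 0.139 with (R)-9b, a log2 odds ratio of -2.38 (exact 95% interval -2.62 to -2.14). Relative to MICA, ULBP2 was lower by a log2 odds ratio of -0.63 (-0.85 to -0.41), ULBP3 by -0.66 (-0.88 to -0.44), RAET1L by -1.68 (-2.36 to -1.04) and MICB by -0.96 (-1.78 to -0.17). RAET1E was higher relative to MICA by 2.85 (0.77 to 6.01), whereas the interval of RAET1G held 0 (-0.42, -1.12 to 0.27). ULBP1 fell further than ULBP2 and ULBP3, whose log2 odds ratios relative to it were 1.75 (1.46 to 2.04) and 1.72 (1.43 to 2.01). The drops of ULBP1 and RAET1L were not told apart, with 0.70 (-0.01 to 1.37) for RAET1L relative to ULBP1. These intervals are for the counts as deposited, and halved counts would widen them. Whether the interval of MICB relative to MICA, which ended at -0.17, would then still exclude 0 was not tested.

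The make-up of the ligand messenger RNA therefore differed between the libraries more than its total did. The 8 genes together had 3494 counts in the vehicle library and 2675 with (R)-9b, or 52.5 and 47.4 CPM, a log2 ratio of -0.15 (-0.22 to -0.07). Without ULBP1, the gene with the lowest log2 ratio, the other 7 had 2531 and 2457 counts, with a log2 ratio of 0.19 (0.11 to 0.28). MICA held 1335 and 1571 of these counts and was higher. ULBP2 (-0.15), ULBP3 (-0.19), RAET1L (-1.21) and MICB (-0.49) each had a log2 ratio below 0, and RAET1G and RAET1E had few counts. The sum without ULBP1 thus reflects mainly MICA and does not show that the other genes were higher. ULBP1 made up 27.6% of the counts of the 8 genes in the vehicle library (Clopper-Pearson 95% interval 26.1 to 29.1) and 8.15% (7.14 to 9.25) with (R)-9b. MICA made up 38.2% (36.6 to 39.8) and then 58.7% (56.8 to 60.6). The shares of ULBP2 were 14.7% and 14.6% and those of ULBP3 15.0% and 14.6%, and their intervals overlapped. RAET1L went from 2.26% (1.79 to 2.81) to 1.08% (0.727 to 1.55). Shares of counts favour long genes and are compared here only within a gene.

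**Figure D3:**
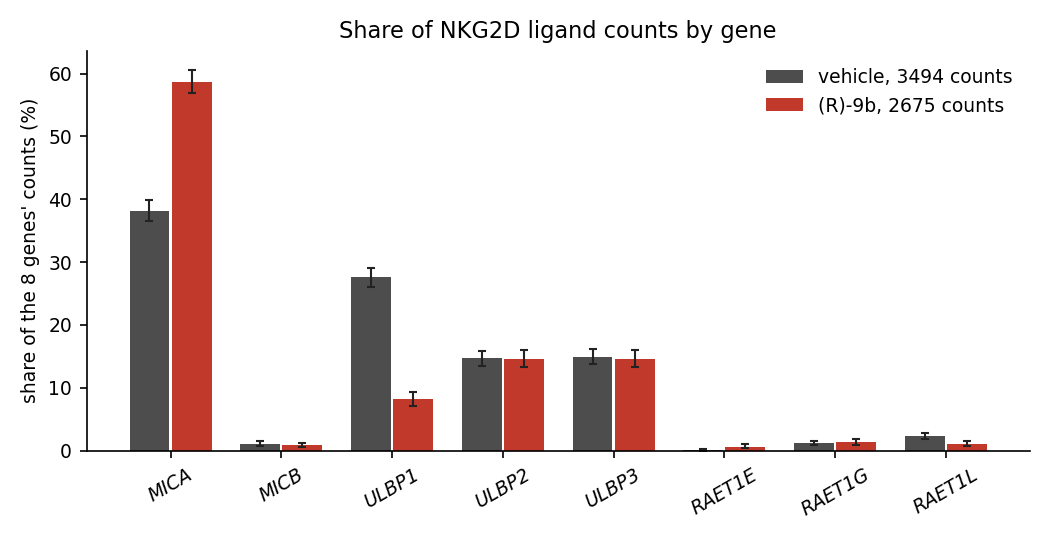
Share (%) of the summed counts of the 8 genes that each gene took in the vehicle library (grey, 3494 counts) and the (R)-9b library (red, 2675 counts), with Clopper-Pearson 95% intervals. MICA takes 38.2% and 58.7%, ULBP1 27.6% and 8.15%, and ULBP2 and ULBP3 near 15% in each library.

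To set the genes beside each other, levels were divided by the merged exon length (CPM per kilobase). In the vehicle library the order was MICA (8.40 CPM per kilobase), ULBP3 (7.95), ULBP2 (5.71), ULBP1 (4.60), RAET1L (0.882), RAET1G (0.414), MICB (0.204) and RAET1E (0.0100). MICA and ULBP3 were the only neighbours in that order whose counting intervals, for the counts as deposited, overlapped. Halved counts would widen the intervals in both libraries and were not used for these levels, so the order of the weaker genes is less sure. With (R)-9b the order was MICA (11.7), ULBP3 (6.99), ULBP2 (5.13), ULBP1 (1.23), RAET1G (0.429), RAET1L (0.382), MICB (0.146) and RAET1E (0.1002), in which RAET1G and RAET1L overlapped, as did MICB and RAET1E. ULBP1 thus kept its place below ULBP2, but the gap between them was wider with (R)-9b. The lengths come from GENCODE 29, and a gene whose annotated exons are not all used in these cells would have its level understated.

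The ULBP/RAET1 cluster did not move as a block. Of 7 tested pseudogenes and chosen neighbours of the ligand genes, 1 was higher (HCP5), 2 were lower (PPP1R14C and PLEKHG1) and 4 held 0, with a median log2 ratio of -0.07. ULBP2 starts 22.0 kb before ULBP1 and RAET1L starts 61.5 kb after it, and their log2 ratios were -0.15 and -1.21 beside -1.91 for ULBP1. The pseudogene RAET1K, between ULBP1 and RAET1L, had 36 and 29 counts, with an interval that held 0 (-0.07, -0.83 to 0.67). Of 21 other genes tested with a start within 500 kb of ULBP1, 8 were lower and 2 higher, with a median log2 ratio of -0.20, beside 31.1% lower and 29.8% higher over all genes tested. Among them PPP1R14C, which encodes an inhibitor of protein phosphatase 1, had 1163 and 389 counts and a log2 ratio of -1.34 (-1.51 to -1.18), while LRP11 had 80 and 56 counts and an interval that held 0 (-0.28, -0.80 to 0.23). IYD, the iodotyrosine deiodinase gene, which was named after its value was seen, had 448 and 781 counts and a log2 ratio of 1.04 (0.87 to 1.21). Beyond that distance PLEKHG1 had 301 and 102 counts and a log2 ratio of -1.32 (-1.66 to -0.99). Around MICA, 21 of 53 other genes tested were higher and 16 lower, with a median log2 ratio of 0.08. There HLA-B, a classical MHC class I gene, had 2793 and 2324 counts and a log2 ratio of -0.03 (-0.11 to 0.05), and the pseudogene MICE had 27 and 32 counts and an interval that held 0 (0.48, -0.30 to 1.28).

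**Figure D4:**
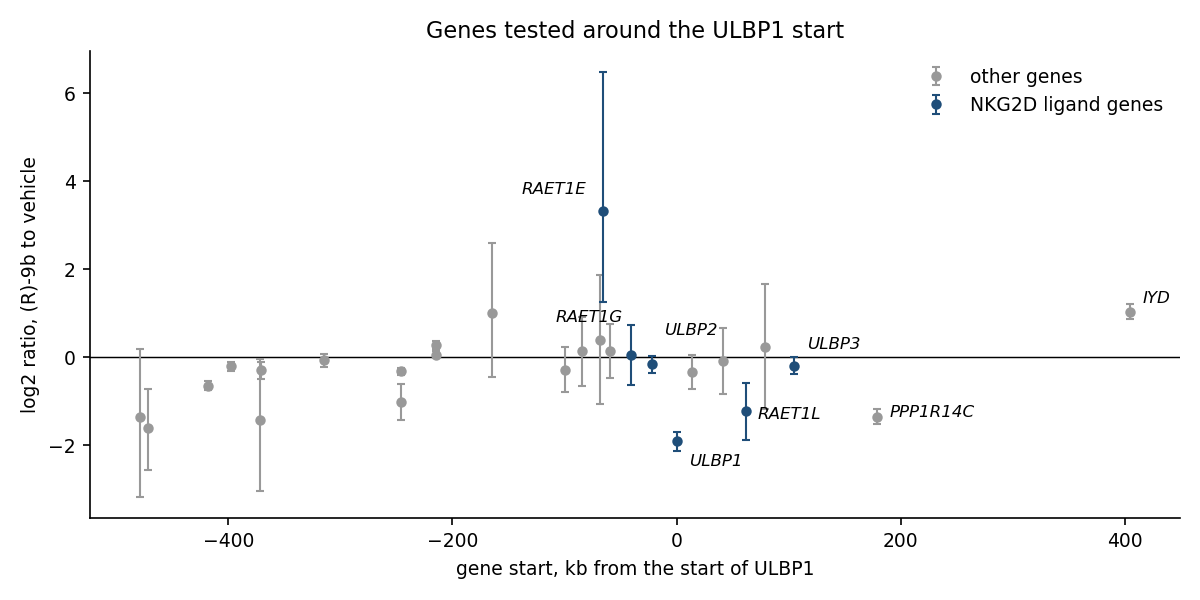
Log2 ratio of (R)-9b to vehicle, with 95% counting intervals, of the genes tested around ULBP1 against the distance of their start from that of ULBP1 in kb. NKG2D ligand genes are blue and the 21 other genes grey, and genes with low and high ratios lie beside each other along the axis.

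The receptor itself was not detected in these epithelial cells. KLRK1, which encodes NKG2D, and TYROBP, which encodes an adaptor of activating receptors, had 0 counts in both libraries, which allows up to 0.0451 CPM in the vehicle library and 0.0531 CPM with (R)-9b. HCST, the gene of the NKG2D adaptor DAP10, had 16 and 6 counts, with a log2 ratio of -1.18 (-2.82 to 0.25) that held 0.

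The counts of each list that follows stand beside the same shares of all genes tested, 29.8% higher and 31.1% lower. The genes of these lists are protein-coding, and those shares are larger among protein-coding genes, of which 5243 were higher and 5474 lower of 14791 tested. Of 8 tested genes for the proteases that shed NKG2D ligands and their partners and inhibitors, 3 were lower, 1 was higher and 4 held 0, with a median log2 ratio of -0.32. PDIA6, a disulphide isomerase that assists the shedding of MICA, had 21359 and 9550 counts (log2 ratio -0.92, -0.96 to -0.89). ADAM17, a membrane protease that cleaves several ligands, had 1372 and 709 counts (-0.71, -0.85 to -0.58). ADAM15, the most abundant gene of the list, was slightly higher, with 26148 and 27073 counts (0.29, 0.26 to 0.31), while ADAM10, another sheddase, had 9913 and 8502 counts (0.02, -0.03 to 0.06). The third gene called lower, ADAM9, had a log2 ratio of -0.28 (-0.32 to -0.25). MMP9 and MMP14 had 6 and 4 counts each and TIMP1, a metalloprotease inhibitor, 63 and 70, all with intervals that held 0.

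The enzymes that build the GPI anchor carried by ULBP1, ULBP2, ULBP3 and RAET1L moved in both directions. Of 24 tested, 9 were higher, 6 were lower and 9 held 0, with a median log2 ratio of 0.06. PIGA, the catalytic subunit of the first step of the pathway, had 1643 and 585 counts and a log2 ratio of -1.25 (-1.39 to -1.12). The mannosyltransferase genes PIGM and PIGV were lower by smaller amounts (-0.64 and -0.48). PIGL, the de-N-acetylase of the second step, had 302 and 517 counts and a log2 ratio of 1.01 (0.81 to 1.22), and PIGQ and PIGG were higher as well (0.60 and 0.33). GPAA1, a subunit of the transamidase that attaches the finished anchor and the most abundant gene of the list, was level (0.00, -0.03 to 0.04).

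NKG2D ligand genes are known targets of the DNA damage response and of several stress-related transcription factors. Of 10 DNA damage signalling genes reported here, 6 were lower, 3 were higher and 1 held 0 (median -0.13), where 31.1% of all genes tested were lower and 29.8% higher. ATM, the kinase that responds to double-strand breaks, had the lowest ratio, with 1911 and 1216 counts (log2 ratio -0.41, -0.52 to -0.31), followed by RAD17 (-0.38) and the checkpoint kinase gene CHEK1 (-0.34). MDC1, a scaffold protein at DNA breaks and the most abundant of the 10, had 6603 and 4901 counts (-0.19, -0.25 to -0.14). ATR, the kinase of the replication stress response, was higher (0.48, 0.40 to 0.56), as were its partner ATRIP (0.47) and the other checkpoint kinase gene, CHEK2 (0.51).

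Of 20 tested regulators of the ligand genes, 9 were higher, 7 lower and 4 held 0 (median 0.08). ATF4, the transcription factor of the integrated stress response and a known activator of ULBP1, was the most abundant and had the lowest ratio, with 73113 counts in the vehicle library and 27486 with (R)-9b (log2 ratio -1.17, -1.19 to -1.15). EZH2, the methyltransferase of Polycomb repressive complex 2, had 4007 and 1744 counts (-0.96, -1.04 to -0.88), and XBP1, a factor of the unfolded protein response, was lower too (-0.62, -0.65 to -0.59). DICER1, which processes microRNAs, had 2767 and 4102 counts (0.81, 0.74 to 0.88) and NFKB1 was higher by a smaller amount (0.38). TGFB1, with 58 and 68 counts, held 0 (0.47, -0.06 to 1.00). Each value is from the same pair of libraries as the ligand genes, so no relation between a regulator and a ligand could be tested.

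**Figure D5:**
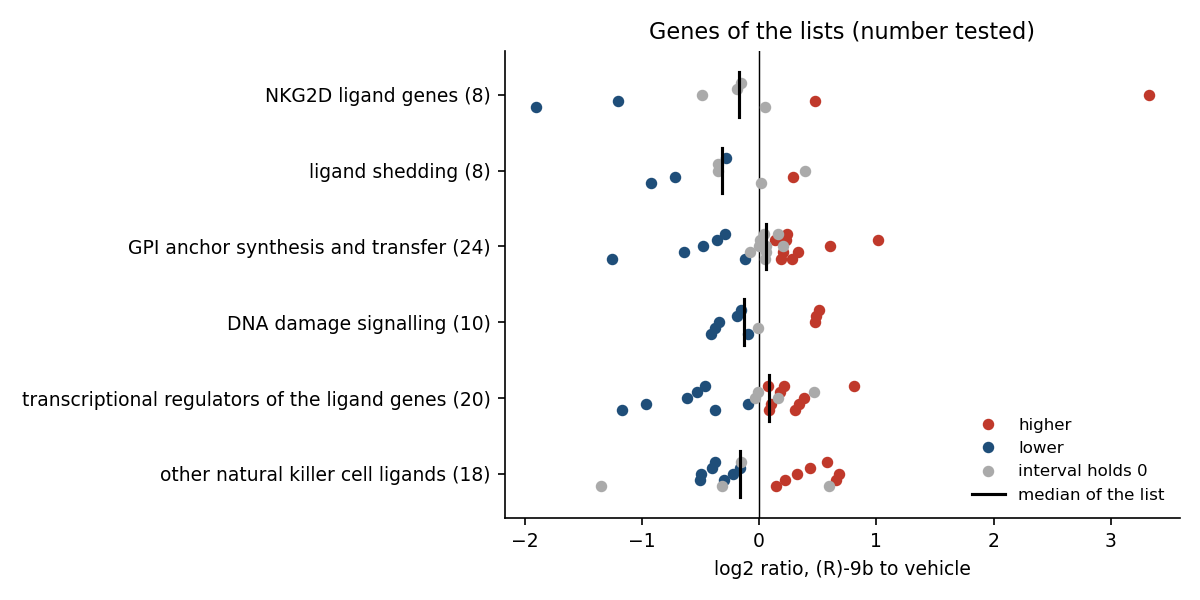
Log2 ratio of (R)-9b to vehicle of the tested genes of each list, with the number tested in brackets; red points were higher, blue points lower and grey points had a 95% counting interval that held 0, and black bars are the list medians. Each of the 6 lists plotted holds points on both sides of 0, and their medians lie between -0.32 and 0.08.

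Other ligands through which natural killer cells read a target cell also went both ways, with 7 of 18 tested higher, 7 lower and 4 holding 0 (median -0.16). B2M, the light chain of MHC class I molecules, had 14993 and 20351 counts (log2 ratio 0.68, 0.65 to 0.71), and HLA-E, the ligand of the inhibitory receptor NKG2A, had 2222 and 2961 (0.65, 0.57 to 0.73). BAG6, a ligand of NKp30 and the most abundant gene of the list, had 27431 and 17625 counts (-0.40, -0.43 to -0.37). CLEC2D, the ligand of the receptor NKR-P1A, was lower (-0.50, -0.74 to -0.27), as was the death receptor gene FAS (-0.50, -0.76 to -0.24). HLA-G (18 and 23 counts) and CLEC2B (18 and 6 counts), the ligand of NKp80, had intervals that held 0.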

How the data were processed

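Poly(A)-selected RNA of C4-2B cells was sequenced as paired reads, 1 library per condition. Per the submitters' processing notes the authors used STAR 2.5.1a on hg38, featureCounts 1.4.6-p5 for gene counts and Salmon 0.8.2 for transcripts, while the study's methods name another STAR version, and the strand setting is not given in the sources used here. The deposited gene table holds raw counts, with CPM and log2 CPM that the authors made from them, and the deposited transcript table holds estimated counts and CPM. The gene table repeats 200 lines, which were used once, and names 60671 genes, of which 33078 had a count.

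Counts were scaled by TMM (edgeR 4.0.16 in R 4.3.3). For each gene with at least 10 counts over both libraries, an exact Clopper-Pearson 95% interval of the ratio was computed (scipy 1.17.1, Python 3.11.15). Levels have exact Poisson intervals and pairs of genes conditional odds ratios. Intervals cover counting error only, and reads without molecular identifiers are not independent molecules. A gene with 0 counts was given the limit of 3 counts. No count model or p-value was possible with 1 library per condition. The code for the intervals was run on simulated counts that had Poisson error only. That run cannot show whether the widths hold for these data, whose counts appeared to be of single mates.

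Positions and exon lengths come from GENCODE 29, promoters from RefSeq, where each of the 8 genes had at least 1 window. Transcript windows of 150 and 75 bases were compared with those of all other genes. The members and the lists were chosen with earlier results of these data known, and 3 genes of the lists are not reported here. All 8 members are described. Of each pathway list, the 3 genes with the largest and the 3 with the smallest ratio and the most abundant were named, with every receptor gene and every tested neighbour on the list.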

Additional observations from a re-analysis of the deposited data

How the results depend on the processing

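No paired analysis was possible because each condition has 1 library. In 14 alternatives, of which up to 12 gave a value for a gene, no ligand gene reversed a call. The log2 ratio of ULBP1 stayed between -1.97 and -1.87, that of MICA between 0.41 and 0.51 and that of RAET1L between -1.70 and -1.09. Wherever such an alternative gave an interval it lay on the same side of 0, while 3 gave a value only, and the intervals of MICA and RAET1L did not lie wholly past 2-fold. The interval of MICA came near 0 (0.06 to 0.89) with an assumed coefficient of variation of 0.1 added. In that setting ULBP1 had -2.36 to -1.45 and RAET1L -1.99 to -0.46. With total counts 4 of the 8 genes were lower, against 2 with TMM, beside 8239 lower and 6185 higher of all 23446 genes. One gene was higher, against 2, with estimated transcript counts (1 of 7 genes), with a minimum of 50 counts (1 of 7, since RAET1E was not tested, beside 5937 higher and 6581 lower of 17670) and with the point ratio past 2-fold (1 of 8). With the whole interval past 2-fold, 1 was higher and 1 lower. Over all genes, 6977 were higher and 7293 lower, against 4630 and 4695 of 14923 with estimated transcript counts, 3921 and 3662 with an assumed coefficient of variation of 0.1 added to counting error, 985 and 807 with the whole interval past 2-fold and 2695 and 2235 with the point ratio past 2-fold. The coefficient of variation between cultures was not measured. Depth left MICB, RAET1G and RAET1E, with 61, 77 and 19 counts in all, too thin to resolve a modest difference.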
